A study of Mus musculus with 4 samples.

Results

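CxH and MH were the 2 libraries labelled Ids-ko among the 4 of the study, and the reads of each gene in CxH were set against its reads in MH. Of the 12700 genes of the deposited table, 12323 had at least 50 reads in either library and were tested, and 377 had fewer. The 4 libraries crossed genotype with brain area in C57BL/6 mice aged 9 months. CxH was labelled as cerebral cortex (Cx, the neocortex) and MH as the M area (midbrain, diencephalon with hypothalamus, thalamus and striatum, and hippocampus), both of mice with the genotype Ids-/-, each brain having been dissected into both areas. CxWT and MWT were labelled as Cx and M of wild-type (wt) littermates. Each condition was 1 library made from the pooled RNA of 7 mice, so nothing here has a replicate check, and a test on the reads of CxH and MH compares those libraries and not the areas. No treatment was given in the labels.

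Ids encodes iduronate-2-sulfatase, a lysosomal enzyme that removes sulfate groups from heparan sulfate and dermatan sulfate. Its loss is the cause of mucopolysaccharidosis type II (Hunter syndrome), in which undegraded glycosaminoglycans are stored in lysosomes. Microglia, the resident phagocytes of the brain, and astrocytes are known to take on activated states in storage diseases of the brain, in which genes of lysosomal proteases, phagocytic receptors and complement are raised in microglia and Gfap, the intermediate filament protein of astrocytes, in astrocytes.

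Ids, on chromosome X from 67596244 to 67618260 (GENCODE vM1, NCBI37/mm9, the build of all gene positions given here), was taken first because it is the disrupted gene. Reads were divided by the aligned reads of each library and are given as RPM. Ids had 135 RPM in CxH (95% exact Clopper-Pearson interval 132 to 139) and 368 RPM in the library labelled MH (362 to 374). In the libraries labelled wt it had 354 RPM in CxWT (347 to 360.1) and 155 RPM in MWT (151 to 159.9). The library labelled MH was thus close to CxWT in Ids, and the library labelled MWT close to CxH. Libraries are named by their labels throughout, and every direction below is that of CxH relative to the library labelled MH, whose Ids reads go against its label. Reads per exon of Ids were not analysed here. All intervals, and the standard errors written after ±, cover counting error only.

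The labelled areas were set beside marker genes. CxH and MH were taken as a pair with their high cortical markers known, so those levels are a description and no finding. Slc17a7, the vesicular glutamate transporter of cortical neurons, had 1359 RPM in CxH and 1240 RPM in MH, against 152 RPM in CxWT and 108 RPM in MWT. Mef2c, a transcription factor of cortical neurons, had 209, 211, 51.4 and 59.6 RPM in the same order. Both were high in CxH and in MH and lower in the libraries labelled wt, as were 17 of the 20 cortical markers. Cux1, a transcription factor of upper cortical layers, was an exception, with 70.6, 55.3, 62.1 and 60.4 RPM in the same order. Slc6a3, the dopamine transporter of midbrain neurons, had 0.416 RPM in CxH and 0.509 RPM in MH, against 56.4 RPM in CxWT and 49.7 RPM in MWT. Tcf7l2, a transcription factor of the thalamus, had 3.71, 3.27, 59.3 and 48.0 RPM in the same order. Of the 24 markers of midbrain and diencephalon in the table, 22 were lower in CxH and MH than in CxWT and MWT. Nr4a2, a transcription factor of dopamine neurons that is also expressed in cortex, had the opposite order, with 24.6, 31.0, 11.3 and 7.12 RPM. Over whole lists, 20 cortical markers summed to 2230 RPM in CxH, 2040 RPM in MH, 451 RPM in CxWT and 394 RPM in MWT. Those of midbrain and diencephalon summed to 70.6, 88.7, 636 and 542 RPM. Of these 24, 7 had at most 3 reads in CxH and 5 in MH, while none had so few in CxWT or MWT. By these markers the library labelled MH, as M, was close to CxH, and the library labelled CxWT, as Cx, was close to MWT, so the area labels of MH and CxWT also go against their reads. CxH over MH is thus the ratio of these libraries and is not read as Cx over M. The floor of 3 reads stood at 0.0779 RPM in CxH and 0.0803 RPM in MH.

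**Figure D1:**
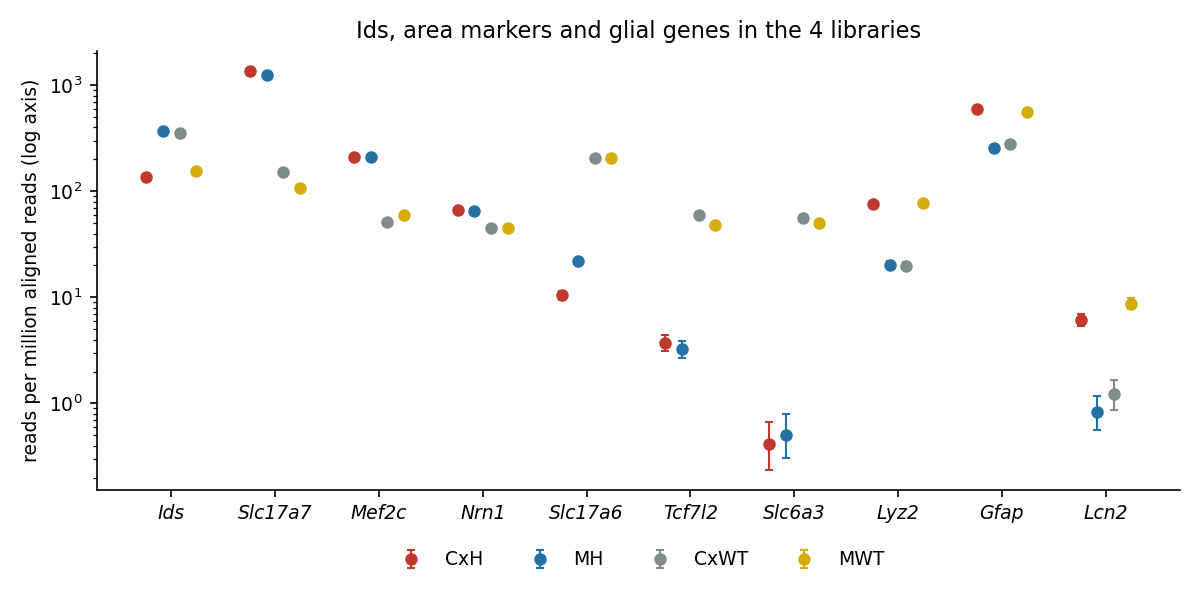
Level of Ids, 6 area markers and 3 glial genes in the 4 libraries, in RPM on a log axis, with 1 point for each library and bars for the 95% exact Clopper-Pearson interval. Ids was low in CxH and in the library labelled MWT, Slc17a7 was high in CxH and MH, Slc6a3 and Tcf7l2 were high in CxWT and MWT, and Lyz2, Gfap and Lcn2 were high in CxH and MWT.

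Between CxH and MH the markers of the areas were compared next. None of the 20 cortical markers was called. A call needed a p-value under 0.05 in a likelihood ratio test on the Poisson counts together with a log2 ratio of 0.7 or more in size. The pair was taken with both libraries known to be high in cortical markers, so the absence of calls among them is a description. Nrn1, a neurotrophic factor of cortical neurons, had 66.9 RPM in CxH and 65.4 RPM in MH, at a log2 ratio of 0.03 ± 0.041. Of the 9 markers of midbrain and diencephalon that were tested, 2 were called, both lower in CxH. Over all tested genes 0.958% were called lower and 2.14% higher. Without the filter on reads 3 of the midbrain and diencephalon list were called higher and 4 lower. Slc17a6, the vesicular glutamate transporter of subcortical neurons, had 10.5 RPM in CxH, 21.8 RPM in MH, 208 RPM in CxWT and 205 RPM in MWT, which put its log2 ratio of CxH over MH at -1.05 ± 0.088. Lhx9, a transcription factor of the thalamus and midbrain, had 54 reads in CxH and 92 in MH, with a log2 ratio of -0.81 ± 0.25, and was not called after the correction described below, at -0.57. Of 9 hippocampal and 14 striatal markers tested, Adora2a, an adenosine receptor of striatal neurons, was the single call as scaled, at a log2 ratio of 0.80 ± 0.047 (0.58 and not called after correction). After correction 1 hippocampal member was called lower and no striatal member was called. The hippocampal list of 9 genes had a median log2 ratio of -0.37 (-0.43 after correction), with 2 of 9 members above 0. The striatal list of 14 genes had a median of 0.21. Whether a trace of other areas in either library plays a part in the ratios below was not tested.

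Over all tested genes the differences were small. The median log2 ratio was 0.015, its median size was 0.20 and the median counting error 0.074. On the p-value alone 7439 genes (60.4%) passed, so that the log2 threshold of 0.7 set most calls. With both criteria 264 genes were called higher in CxH, or 2.14% of all tested, and 118 were called lower, or 0.958%. Scaled by the column totals of the table in place of the aligned reads, 215 were called higher and 163 lower. Near the filter, 90 genes with 40 to 49 reads in the higher library had a median size of 0.35, and 110 genes with 50 to 59 reads had 0.33.

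The ratio followed the base composition of the transcript. GC content of the longest protein-coding transcript, known for 11948 tested genes, correlated across genes with the log2 ratio at a Spearman coefficient of 0.557, and transcript length at -0.285. Genes are not independent replicates, so these are descriptions. In the decile of genes with the lowest GC content, 30.3% to 42.3%, the median log2 ratio was -0.27, with 5 genes called higher and 36 called lower. In the highest decile, 58.5% to 72.8%, it was 0.25, with 54 called higher and 5 called lower. A smooth curve of the ratio on GC content and then on length was therefore subtracted, after which the GC coefficient was -0.032. After this correction 131 genes (1.1%) were called higher and 112 (0.937%) lower. In MWT over CxWT the GC coefficient was -0.616, the opposite sign, and -0.091 after correction.

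**Figure D2:**
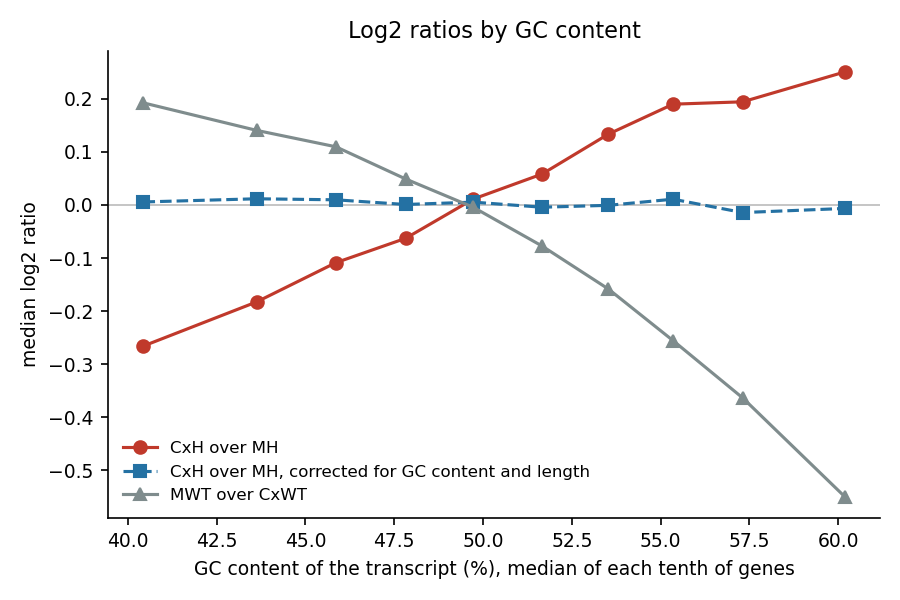
Median log2 ratio (vertical axis) in deciles of genes ordered by GC content in percent (horizontal axis), for CxH over MH as scaled, for CxH over MH after correction, and for MWT over CxWT as scaled. CxH over MH climbed from -0.27 in the lowest decile to 0.25 in the highest, the corrected ratio lay close to 0 throughout, and MWT over CxWT ran the opposite way.

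Genes called in the same direction with and without correction, termed called both ways, are the ones described below. They were 114 genes higher in CxH, or 0.954% of those with a GC content, and 61 genes lower, or 0.511%. The correction removed 139 of the higher calls and 50 of the lower ones, and turned the direction of none. Higher genes called both ways had a median log2 ratio of 1.03, with 65 of them at 1 or above, and lower genes had a median of -0.90, with 18 at 1 or above in size. The pair CxH and MH was taken with their difference in Ids known, so Ids among the lower genes is a description and no finding. Its log2 ratio was -1.44 ± 0.023 as scaled and -1.19 after correction.

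**Figure D3:**
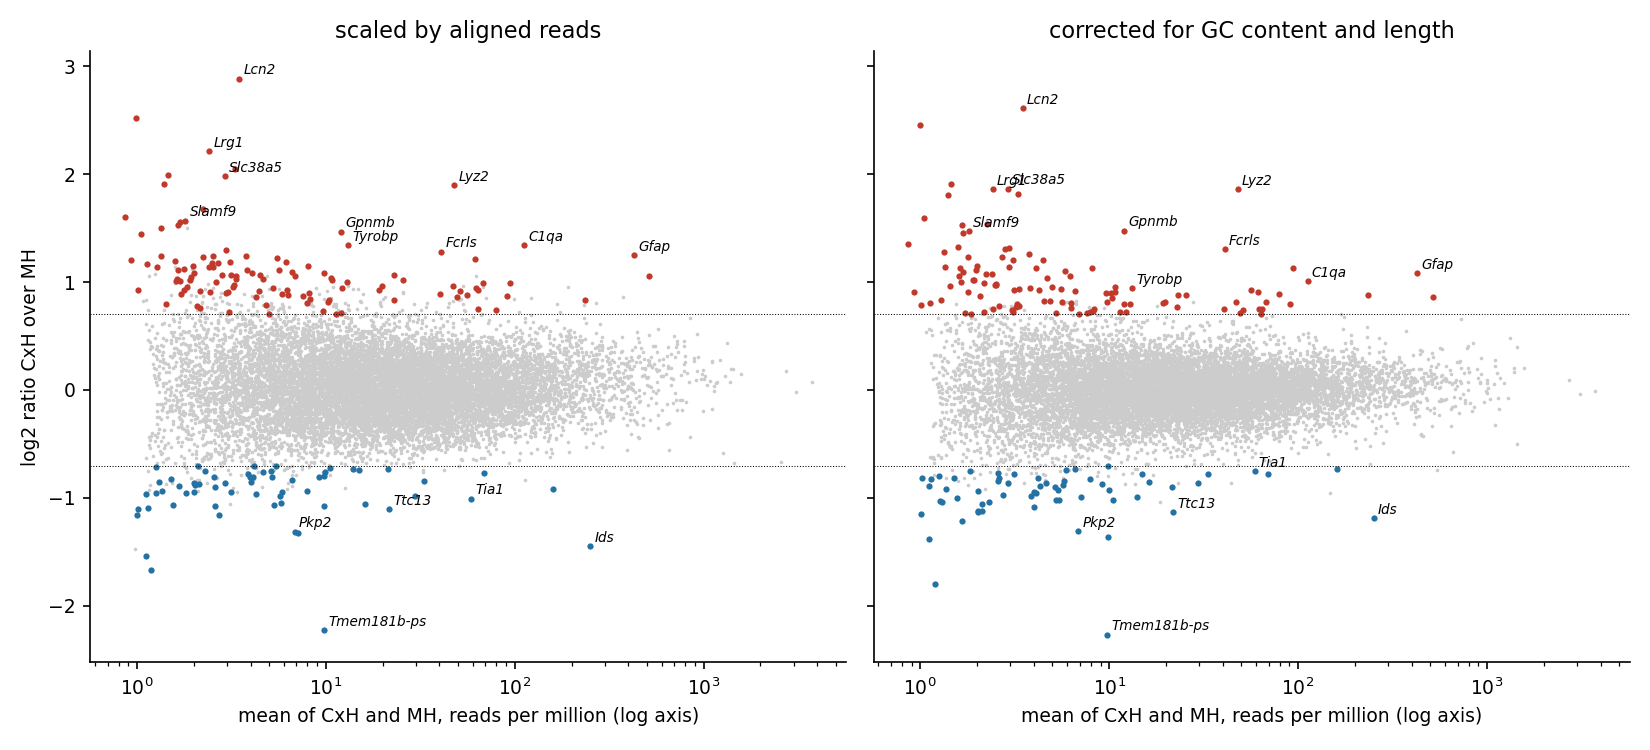
Log2 ratio of CxH over MH (vertical axis) against the mean RPM of both libraries (log axis), as scaled on the left and after correction for GC content and length on the right, with 1 point for each tested gene. Red and blue points are the 114 higher and 61 lower genes called both ways, dotted lines mark 0.7 in size, and 15 of the named genes are labelled, from Lcn2 at 2.89 to Tmem181b-ps at -2.22 on the left.

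Genes of phagocytes and of immune functions were frequent among the higher genes. Lists of disease-associated microglia, phagocytes, complement and antigen presentation together held 73 genes of the table, of which 69 were tested. Of these 69, 34 were called higher and 0 lower, and 28 were called higher both ways, where 2.14% and 0.954% of all genes were. The median log2 ratio was 0.69 (0.59 after correction), beside 0.015 over all tested genes. More cells of a type and more RNA of these genes in each cell cannot be told apart in bulk tissue. Some members were reported earlier from these libraries, so the direction of these lists is not independent evidence.

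The phagocyte list stood highest, with 13 of 17 tested genes called higher, 11 of them both ways, and a median log2 ratio of 0.99 (0.81 after correction). Lyz2, lysozyme of macrophages and microglia on chromosome 10 from 116714390 to 116719377, had 75.6 RPM in CxH and 20.3 RPM in MH, and 19.8 RPM in CxWT and 77.4 RPM in MWT. Its level was thus high in CxH and in the library labelled MWT, and CxH stood 3.72-fold above MH, at a log2 ratio of 1.89 ± 0.059. Reads of Lyz2 and its near-identical copy Lyz1 can be split uncertainly between them. Mpeg1, a pore-forming protein of phagocytes, had 4812 reads in CxH and 2349 in MH, with a log2 ratio of 0.99 ± 0.036 (1.13 after correction). Laptm5, a lysosomal membrane protein of blood-derived cells and microglia, had 3480 and 1699 reads and the same ratio of 0.99 ± 0.043. Slamf9, a surface receptor of myeloid cells, had 104 and 34 reads, at 1.57 ± 0.29. Ly86, a partner of a toll-like receptor relative, had 510 and 278 reads at 0.83 ± 0.11. Fcer1g, the signalling chain of Fc receptors, was called at 0.95 ± 0.11 but not after correction, at 0.67.

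Of 21 tested genes of disease-associated microglia, 10 were called higher and 9 of them both ways, with a median log2 ratio of 0.69 (0.59 after correction). Ctsd, the lysosomal aspartic protease cathepsin D, had 26826 reads in CxH, 12512 in MH, 12627 in CxWT and 17970 in MWT, the deepest count among the called members, and a log2 ratio of CxH over MH of 1.06 ± 0.016. Gpnmb, a transmembrane glycoprotein of phagocytes on chromosome 6 from 48986517 to 49020928, had 17.7, 6.40, 4.13 and 12 RPM in CxH, MH, CxWT and MWT, at 1.47 ± 0.11. Its corrected ratio of 1.48 was nearly the same. Lgals3, the lectin galectin-3, had 5.30 RPM in CxH, 1.28 RPM in MH, 1.84 RPM in CxWT and 3.83 RPM in MWT, at 2.04 ± 0.23. Cst7, an inhibitor of lysosomal cysteine proteases, had 132 and 40 reads in CxH and MH, at 1.68 ± 0.26. Tyrobp, the adaptor that carries signals of microglial receptors, had 728 and 278 reads, at 1.35 ± 0.10 (0.94 after correction). Cd68, a lysosomal glycoprotein of macrophages, and Cd63, a tetraspanin of late endosomes, were called both ways at 1.07 ± 0.074 and 0.93 ± 0.080. In these genes CxH was above MH, and MWT above CxWT, in each case.

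The complement list had 7 of 15 tested genes called higher, 5 of them both ways, at a median of 0.37. C1qa, a subunit of the recognition molecule C1q on chromosome 4 from 136451832 to 136454718, had 161 RPM in CxH, 63.5 RPM in MH, 60.4 RPM in CxWT and 128 RPM in MWT. CxH stood 2.54-fold above MH, at 1.35 ± 0.035. The other subunits followed with 3300 and 1384 reads for C1qb, at 1.21 ± 0.046, and 3437 and 1727 reads for C1qc, at 0.95 ± 0.043. C1qc was not called after correction, at 0.67. C4b, a component of the classical pathway, was called both ways at 0.89 ± 0.055, and its near-identical copy C4a, which had no GC content, was called as scaled at 0.90 ± 0.069. Reads of C4a and C4b cannot be assigned with certainty.

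In antigen presentation 4 of 16 tested genes were called higher, 3 of them both ways, and the median was 0.38 as scaled and 0.13 after correction. H2-DMb1, which helps load peptides onto class II molecules, had 133 reads in CxH and 57 in MH, at 1.18 ± 0.23. Ifi30, a thiol reductase of lysosomes, had 235 and 109 reads at 1.06 ± 0.17, and Psmb8, a subunit of the immunoproteasome, had 134 and 65 reads at 1.0 ± 0.22. Tap2, a subunit of the peptide transporter, was called at 0.76 ± 0.14 but not after correction, at 0.58. Of 19 tested genes of the interferon response 2 were called higher, 1 of them both ways, where 2.14% and 0.954% of all genes were. Ifitm3, an antiviral membrane protein, was called both ways at 1.08 ± 0.11, while Bst2, which tethers virus particles, was at 1.02 ± 0.26 as scaled and at 0.67 after correction.

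Of 16 tested genes of homeostatic microglia, Fcrls, a scavenger receptor enriched in microglia on chromosome 3 from 87054680 to 87067660, was the single call, with 58.1 RPM in CxH, 23.9 RPM in MH, 16.4 RPM in CxWT and 48.3 RPM in MWT. Its log2 ratio was 1.28 ± 0.057 (1.31 after correction). The median of the list was 0.19 (0.25 after correction), with 12 of 16 members above 0 as scaled and 14 after correction. Of all genes, 2.14% were called higher as scaled and 0.954% both ways. P2ry12 and Tmem119, microglial surface proteins chosen for mention after their values were seen, were at -0.10 ± 0.055 and 0.52 ± 0.061, neither of them called. The difference between the lists was not tested. Tlr2, the receptor of bacterial lipopeptides, and Ly9, a lymphocyte and myeloid surface receptor, were on none of these lists and were among the highest genes, at 1.30 ± 0.21 and 1.24 ± 0.19.

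Promoters of the higher genes were read because many phagocyte genes moved together. Sequences were taken from RefSeq (GRCm38.p6) as 250 bases before to 50 bases after the start. They were matched by gene identifier for 9841 tested genes, 90 higher and 52 lower genes. Both strands were searched for 9 motifs chosen after the results were known. The motif AGGAAGT, the core bound by the myeloid factor PU.1 and other ETS factors, was in 21 of the 90 promoters of higher genes (23.3%), in 9.62% of those of lower genes and in 9.60% of all tested. The longer GAGGAAGT, which overlaps it, was in 10% of higher, 3.85% of lower and 3.30% of all promoters. TCACGTG, part of the motif of the lysosomal regulator TFEB, was in 5.56% of higher, 3.85% of lower and 6.96% of all. A match is a description of letters and not a binding site. The promoters below belong to named genes called both ways, in capitals the motif AGGAAGT (or its reverse complement) and, in Ctsd, TCACGTG, each printed on the strand of the gene from 5′ to 3′.
Lyz2, chr10:117282326-117282412, minus strand, motif at -100 to -94 from the start: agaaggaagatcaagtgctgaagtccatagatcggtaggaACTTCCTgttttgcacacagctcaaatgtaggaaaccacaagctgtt
C1qb, chr4:136886207-136886293, minus strand, motif at -53 to -47: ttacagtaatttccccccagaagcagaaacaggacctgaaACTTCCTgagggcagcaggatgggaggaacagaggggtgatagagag
Fcrls, chr3:87263553-87263639, minus strand, motif at -75 to -69: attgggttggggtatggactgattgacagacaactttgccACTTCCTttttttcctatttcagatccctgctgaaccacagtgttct
Cst7, chr2:150570312-150570398, plus strand, motif at -63 to -57: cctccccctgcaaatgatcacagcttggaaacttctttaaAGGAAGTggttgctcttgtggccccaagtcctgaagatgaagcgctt
Ctsd, chr7:142387880-142387966, minus strand, motif at -99 to -93: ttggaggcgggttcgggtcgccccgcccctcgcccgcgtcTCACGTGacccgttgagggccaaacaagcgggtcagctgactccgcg

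For the remaining 6 motifs the shares were as follows. CACGTG, which lies within TCACGTG, was in 7.78% of higher, 7.69% of lower and 11.8% of all promoters. TTCNNNGAA, a motif of STAT factors, was in 11.1%, 13.5% and 8.24%, and a motif of interferon regulatory factors, GAAA repeated after 2 bases, in 4.44%, 1.92% and 3.40%. A motif of NF-κB, GGG and TTTCC with 2 bases between them, was in 2.22%, 1.92% and 1.86%. TTGCNNCAA and TTGCGCAA, motifs of C/EBP factors, were in none of the 90 higher promoters, in 3.85% and 1.92% of lower and in 1.88% and 0.325% of all.

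The highest ratio among the named genes lay in a gene of reactive astrocytes. Of 17 tested genes of reactive astrocytes 3 were called higher, all both ways, at a median log2 ratio of 0.46 (0.38 after correction). Of all genes, 2.14% were called higher as scaled and 0.954% both ways. Of 18 genes of homeostatic astrocytes 0 were called, which is near that share. Their median was 0.23 (0.21 after correction), with 15 of 18 above 0. Gfap, on chromosome 11 from 102748650 to 102762226, had 603 RPM in CxH, 253 RPM in MH, 280 RPM in CxWT and 555 RPM in MWT. This placed CxH 2.38-fold above MH, at 1.25 ± 0.018, with MWT likewise high. Lcn2, an iron-scavenging protein secreted by reactive astrocytes on chromosome 2 from 32240153 to 32243317, had 236 reads in CxH, 31 in MH, 41 in CxWT and 253 in MWT. Its ratio, the highest among genes called both ways with 100 reads or more, was 2.89 ± 0.28 or 7.39-fold. Lrg1, a secreted acute-phase protein, had 153, 32, 22 and 39 reads in the same order, at 2.21 ± 0.28 (1.86 after correction).

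In vessels, 3 of 22 tested endothelial genes were called higher, 2 of them both ways, where 2.14% and 0.954% of all genes were. Slc38a5, a glutamine transporter on chromosome X from 7848259 to 7857305, had 179 reads in CxH, 44 in MH, 72 in CxWT and 102 in MWT, at 1.98 ± 0.24. Vwf, the clotting factor of endothelial cells, had 1321 and 634 reads in CxH and MH, at 1.02 ± 0.070. Ly6c1, a surface protein of brain vessels, was called as scaled alone, at 0.84 ± 0.077. The endothelial median was 0.22 (0.12 after correction), with 16 of 22 members above 0 as scaled and 20 after correction. Mural and meningeal genes had 1 call higher and 2 lower of 21, where 2.14% and 0.958% of all genes were. The higher one was Slc6a13, a GABA transporter of the meninges, at 0.71 ± 0.10, and it was lost with the correction. Myelin genes had 0 calls of 18 and a median of -0.0071, with summed levels of 5394 RPM in CxH and 5547 RPM in MH. Agpat2, an acyltransferase of phospholipid synthesis outside all lists, was the last of the 15 highest genes, at 1.24 ± 0.23.

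Among lysosomal genes, called members were counted in 4 lists, to be read against the 2.14% of all genes called higher as scaled and 0.954% both ways. Cathepsins and their inhibitors had 4 of 15 tested genes called higher, all both ways, at a median of 0.60 (0.40 after correction). Besides Ctsd and Cst7 these were Ctss, the cysteine protease of microglia, with 2800 reads in CxH and 1472 in MH at 0.88 ± 0.046, and Ctsh, a related protease, with 409 and 221 reads at 0.84 ± 0.12. In glycosaminoglycan degradation, the pathway of Ids, 3 of 17 were called higher and Ids alone lower, at a median of 0.34 (0.20 after correction). Hexa, a subunit of beta-hexosaminidase, had 2588 reads in CxH, 1329 in MH, 1261 in CxWT and 1503 in MWT, at 0.92 ± 0.049. Hpse, the heparanase that cuts heparan sulfate, had 166, 71, 65 and 127 reads in the same order, at 1.18 ± 0.20 (1.20 after correction). Gusb, beta-glucuronidase, was at 0.78 ± 0.12, and at 0.70, just under the threshold, after correction. Of 23 other lysosomal hydrolases and cofactors Npc2, a cholesterol carrier, was the single call, at 0.75 ± 0.043. Of 32 genes of the lysosomal membrane and its acidification 2 were called, Laptm5 and Cd63, at a median of 0.087 over the list. With so few calls, these last lists are not set apart from all genes. Whether the share of phagocytes plays a part in the ratios of these enzymes was not tested.

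**Figure D4:**
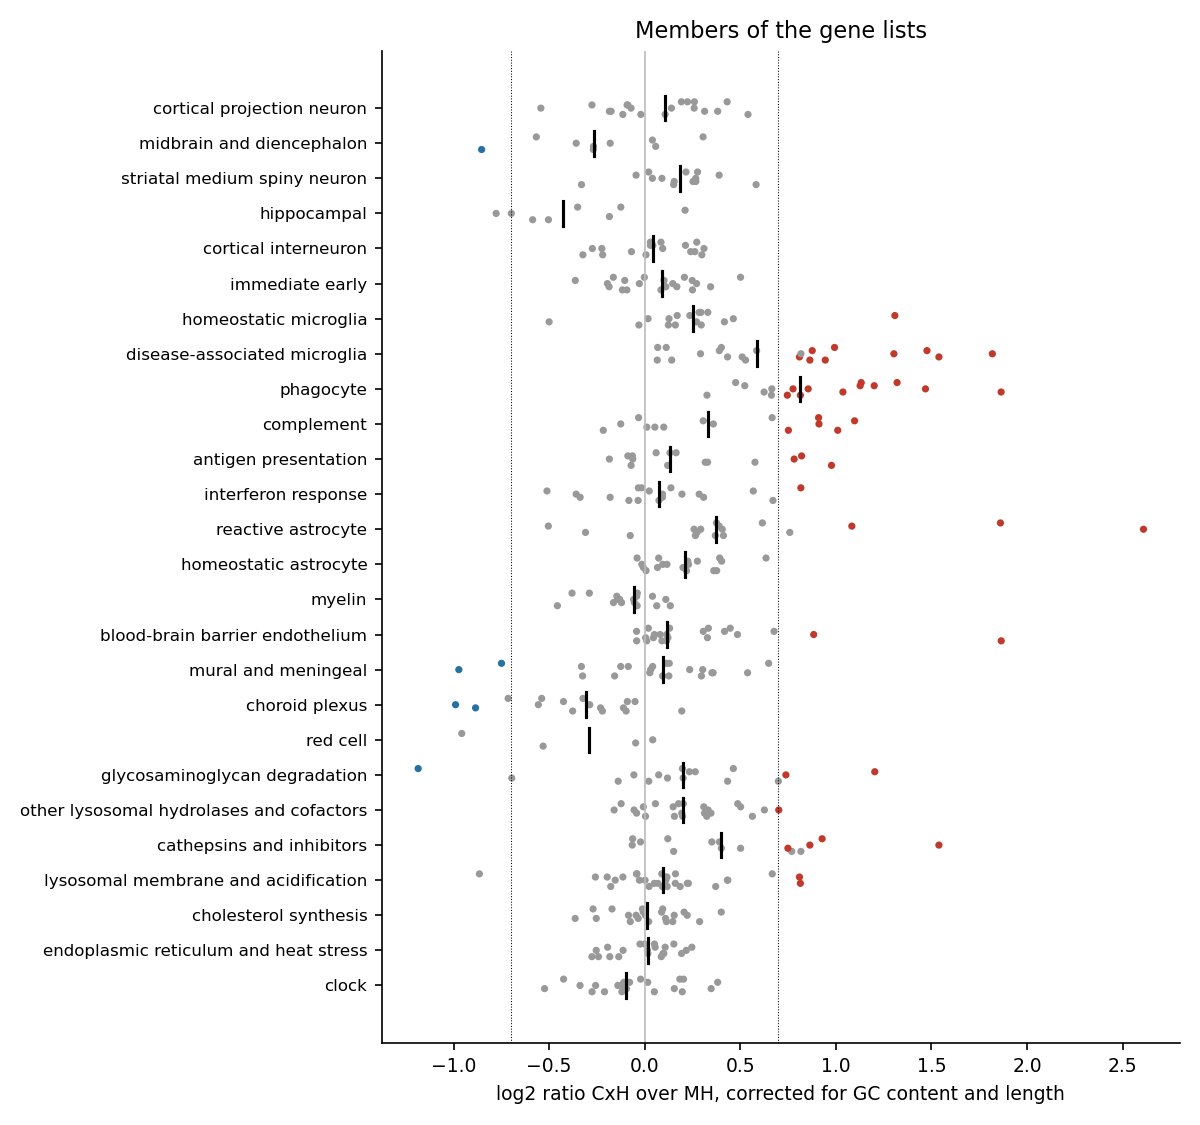
Corrected log2 ratio of CxH over MH (horizontal axis) of each tested member of the 26 gene lists (rows), with black bars at the list medians and dotted lines at 0.7 in size. Red and blue points are members called higher and lower both ways, and the phagocyte list has the highest median, at 0.81, while the medians of myelin, cholesterol synthesis and the clock lie near 0.

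Among the genes lower in CxH, Tmem181b-ps, annotated as a pseudogene related to Tmem181 on chromosome 17 from 6439626 to 6489526, had 133 reads in CxH, 602 in MH, 357 in CxWT and 83 in MWT. Its ratio, the lowest among genes called both ways with 100 reads or more, was -2.22 ± 0.14, so that MH stood 4.66-fold above CxH. Tmem181c-ps, a related copy beside it from 6635399 to 6636930, had 244, 499, 307 and 157 reads in the same order, at -1.08 ± 0.11 (-1.36 after correction). Both copies had the pattern of Ids, low in CxH and MWT. Because they are similar in sequence, reads can be split between them and their parent gene, and their values are uncertain.

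Of 16 tested choroid plexus genes, 3 were called lower in CxH, 2 of them both ways, and 0 higher, at a median of -0.29. Of all genes, 0.958% were called lower as scaled and 0.511% both ways. Prlr, the prolactin receptor, had 4.05 RPM in CxH, 10.1 RPM in MH, 24.0 RPM in CxWT and 26.3 RPM in MWT, at -1.32 ± 0.14. Kcne2, a potassium channel subunit on chromosome 16 from 92292634 to 92298374, had 2.91, 5.67, 1.99 and 4.66 RPM in the same order, at -0.96 ± 0.17. F5, coagulation factor V, was at -0.71 ± 0.13 and was not called after correction, at -0.56. The list summed to 882 RPM in CxH, 1045 RPM in MH, 431 RPM in CxWT and 661 RPM in MWT, and its part in these ratios was not tested. Of the mural and meningeal genes, Fmo2, a flavin-containing monooxygenase, had 65 reads in CxH and 141 in MH, at -1.16 ± 0.22, and Lum, a proteoglycan of connective tissue, had 48 and 90, at -0.95 ± 0.26.

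Pkp2, a protein of desmosomes on chromosome 16 from 16213411 to 16272805, had 152 reads in CxH, 366 in MH, 217 in CxWT and 183 in MWT, at -1.31 ± 0.14 (-1.30 after correction). Unlike Ids it was near level between CxWT and MWT, at 6.45 and 6.32 RPM. Tia1, an RNA-binding protein of stress granules, had 39.1 RPM in CxH and 78.5 RPM in MH, at -1.01 ± 0.046. Ttc13, a protein with tetratricopeptide repeats, had 13.8 RPM in CxH, 29.6 RPM in MH, 25.0 RPM in CxWT and 17 RPM in MWT, at -1.10 ± 0.076. Pdcl, a chaperone cofactor of G protein subunits, had 20.0, 39.4, 44.1 and 26.7 RPM in the same order, at -0.98 ± 0.064. Ttc13 and Pdcl were lower in CxH and in MWT than in the other libraries, as Ids was. The rest of the 15 lowest genes lay between -1.08 and -0.98, namely the zinc finger gene Zfp455, the cilium gene Cfap44, the integrin subunit gene Itga8 and the oviductal glycoprotein gene Ovgp1.

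Beside Ids on chromosome X, the 5 tested genes on either side had log2 ratios of CxH over MH between -0.74 and -0.067, with a median of -0.23, and between -0.56 and 0.15 after correction. On the side of lower coordinates these were Cdr1, Slitrk4, Slitrk2, Fmr1 and Aff2, and on the other side Eola1, Mamld1, Mtm1, Mtmr1 and Cd99l2. Ids, at -1.44, lay below all of them. Aff2, a transcriptional regulator and the nearest of the lower side, was at -0.19 ± 0.14, and Eola1, the nearest of the other side, at -0.15 ± 0.17. Cdr1 was the single neighbour called as scaled, at -0.74 ± 0.053, and was at -0.56 after correction.

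MWT over CxWT is the pair that shares no library with CxH over MH. It was chosen and oriented so that the library with less Ids stands over the library with more, which fixes the direction of Ids itself. There 127 genes (1.06%) were called higher both ways and 121 (1.01%) lower. Of the 114 higher genes of CxH over MH, 103 were tested in MWT over CxWT. The corrected ratio was above 0 for 97 of them (94.2%), against 49.6% of 11809 genes tested in both pairs, and 49 were called higher both ways there, while 0 were called lower. These 49 were 43.0% of the higher genes of CxH over MH and 38.6% of those of MWT over CxWT. Ids was left out of the counts of lower genes, since its direction was fixed. Of the other 60 lower genes 55 were tested in MWT over CxWT, 43 (78.2%) were below 0, against 50.4% of all, 11 were called lower both ways and 1, Kcne2, was called higher. These 11 were 18.3% of the 60 and 9.17% of the 120 lower genes of MWT over CxWT other than Ids. Across all genes tested in both pairs the corrected ratios had a Pearson correlation of 0.44, and the ratios as scaled 0.030, given as descriptions. The difference between the pairs was not tested.

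In MWT over CxWT the corrected medians of the phagocyte, disease-associated microglia, complement and antigen presentation lists were 1.02, 0.52, 0.65 and 0.25, beside -0.0026 over all genes. As scaled they were 1.24, 0.68, 0.54 and -0.013, beside -0.047, so that antigen presentation stood above 0 after correction alone. The phagocyte list had 12 of 17 tested members called higher both ways there, and the list of disease-associated microglia 9 of 21. Complement had 3 of 14, and antigen presentation 3 of 15, with 1 lower. Of all genes in MWT over CxWT, 1.06% were called higher both ways and 1.01% lower. Ly9 was at 2.10 ± 0.24 in MWT over CxWT and 1.24 ± 0.19 in CxH over MH, and Lyz2 at 1.96 ± 0.064 and 1.89 ± 0.059. Of 15 tested choroid plexus genes 6 were called higher both ways in MWT than in CxWT. In CxH over MH, 2 of 16 had been called lower both ways, where 0.511% of all genes were. Kcne2 was at 1.23 ± 0.22 in MWT over CxWT and at -0.96 ± 0.17 in CxH over MH, while Prlr was at 0.13 ± 0.073 and -1.32 ± 0.14. Prlr, Pkp2, Fmo2 and Slc17a6 were lower in CxH than in MH without a call in MWT over CxWT.

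**Figure D5:**
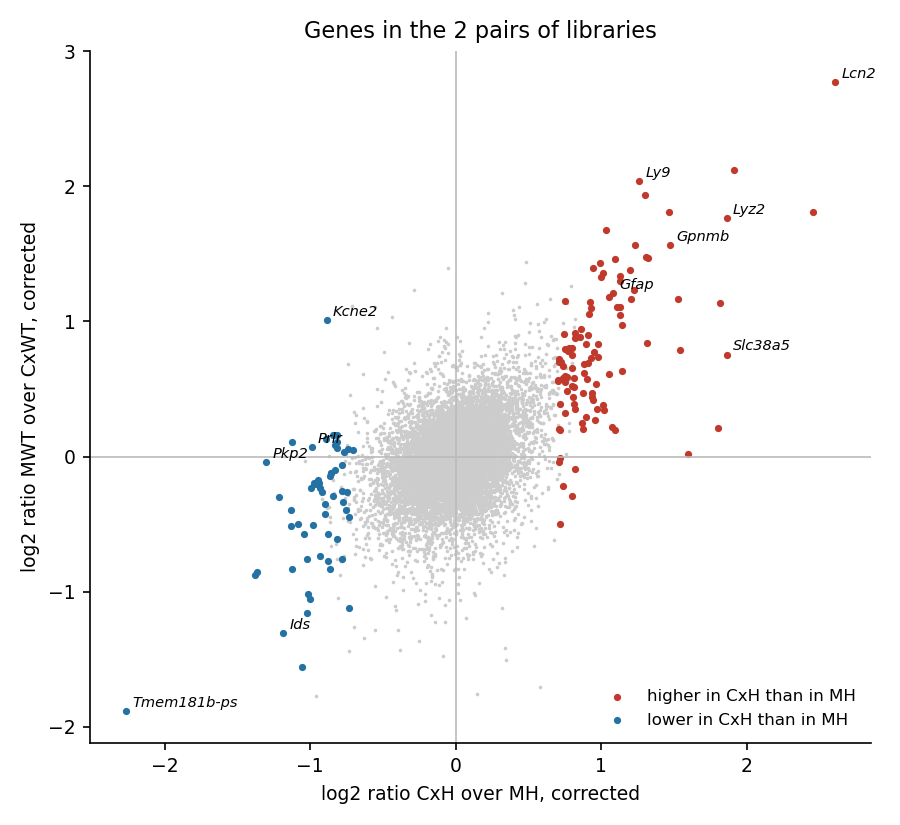
Corrected log2 ratio of MWT over CxWT (vertical axis) against that of CxH over MH (horizontal axis), with 1 point for each gene tested in both pairs. Red points, higher in CxH than in MH both ways, lie above 0 on the vertical axis for 97 of 103 genes, and Ids and Tmem181b-ps, among the blue points for lower genes, lie below 0 on both axes while Kcne2 lies above it on the vertical axis.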

How the data were processed

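The authors sequenced poly(A) RNA on a SOLiD 3 Plus instrument in the same run, aligned reads to NCBI37/mm9 with PASS (best hit, at most 2 mismatches, no gap), and deposited counts of reads aligned to a single gene. Genes had to be covered by reads along over 50% of their length. The counts the authors deposited are not normalized, and the gene annotation is not given in the sources used here. Reads on genes numbered 23475080 in CxH and 22057807 in MH, and 20266394 in CxWT and 16380080 in MWT.

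Counts were divided by aligned reads, with a count of 0 set to 1 for ratios. The likelihood ratio test and the thresholds were those the study states for ratios of reads, applied here to ratios scaled by aligned reads and to genes with 50 reads or more in either library. Entrez identifiers gave RefSeq symbols for 12690 genes, of which 12422 matched a GENCODE vM1 gene. The correction was a lowess curve (span 0.3) through the genes that had 100 or more reads in both libraries. Named were Ids, the 15 highest and lowest ratios called both ways with at least 100 reads in either library, up to 5 called members per list and direction, the 4 most-read members of each area list, and the neighbours of Ids. Members and lists were chosen with earlier results of these data known. Alternatives covered scaling, read filters, thresholds, adjusted p-values, edgeR's exact test, an added count, and corrections for GC content or length alone. Calculations ran in R 4.3.3 (DESeq2 1.42.0, edgeR 4.0.16) and in Python 3.11.15 with statsmodels 0.14.6, scipy 1.17.1, pandas 2.3.3, numpy 2.4.6 and matplotlib 3.10.9, and the steps were tested on simulated data.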

Additional observations from a re-analysis of the deposited data

Results flagged for a closer look

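Among the named genes, 24 other than Ids were called both ways, in the same direction, in CxH over MH and in MWT over CxWT. Ids was so too, but by construction, since MWT over CxWT was oriented by it. By the labels, these pairs set the areas in opposite order within each genotype, so the ratio of the library labelled Cx over the library labelled M had opposite directions. With 1 library per condition this difference was not tested. It cannot be read as a difference of areas or genotypes, because the Ids reads go against the labels of MH and MWT and the area markers against those of MH and CxWT. Log2 ratios of MWT over CxWT are given here, those of CxH over MH being in the report.

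Higher in the library labelled MWT were surface receptors, phagocyte and microglial genes and complement. Ly9 was at 2.10, Lyz2 at 1.96, Slamf9 at 1.94, Fcrls at 1.56, Tyrobp at 1.51, Mpeg1 at 1.36, Ly86 at 1.24, C1qa at 1.09, Tlr2 at 0.86 and C1qb at 0.74. The lysosomal genes and genes of disease-associated microglia were Gpnmb at 1.54, Ctss at 1.36, Hpse at 1.18, Lgals3 at 1.06, Cst7 at 1.0, Ifi30 at 1.0 and Ctsd at 0.72. H2-DMb1 was at 0.71. The astrocyte genes Lcn2 and Gfap were at 2.84 and 0.99, and the endothelial transporter gene Slc38a5 at 0.72. Those lower in MWT were Pdcl at -0.72, Tmem181c-ps at -0.75, Ids at -1.19 and Tmem181b-ps at -1.89.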

How the results depend on the processing

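With a log2 threshold of 1, 73 genes were called higher and 20 lower, and 20 members of the 4 immune lists were called higher. An exact test with an assumed coefficient of variation of 0.2 between pools gave 127 and 34, where the Poisson test gave 264 and 118. Genes called higher numbered 131 with the correction for GC content and length, 170 with GC content alone and 175 with length alone, while 112, 103 and 151 were called lower. TMM factors and DESeq2 size factors each gave 244 and 125. The log2 ratio of Ids lay between -1.49 and -1.19 over all 13 alternatives. Of the counts of called list members, 18 were above 0, and of their 234 recomputed values 31 moved by more than 1.5 times. Of the 4 immune lists 34 members were called higher as scaled, and 20 to 38 over the alternatives. The count of genes called higher in both pairs was 65 as scaled and 61 after correction, and of those lower, without Ids, 16 and 22. No paired analysis was possible because each condition is 1 library of pooled mice and the labels carry no replicate numbers, although as labelled both areas come from the same mice. Depth limits genes near 50 reads, and variation between pools could not be estimated.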

Other observations

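Neuronal and housekeeping lists gave no call in CxH over MH. These were 20 immediate early genes at a median log2 ratio of 0.17, 17 genes of cortical interneurons at 0.11, 23 of cholesterol synthesis at 0.13, 21 of endoplasmic reticulum and heat stress at 0.027 and 21 of the clock at 0.030, beside 0.015 over all tested genes. Of all genes, 2.14% were called higher and 0.958% lower, so 0 calls in lists of this size do not set them apart. Red cell genes had 0 calls of 4 as scaled, and Hba-a1, an alpha globin gene with near-identical copies, was at -0.58 ± 0.028, and at -0.96 and called lower after correction.

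Genes called both ways lay on all chromosomes with more than 4 tested genes. Over all genes with a GC content their share was 1.46%. It was lowest on chromosome 5, at 0.926%, and highest on chromosome 17, at 2.46%, with 10 genes higher and 4 lower of 570. On chromosome X it was 1.46%, the share over all genes, with 4 higher and 2 lower of 412. Beside Tmem181b-ps, a region looked at after its ratio was seen, the tested neighbours other than Tmem181c-ps, from Tmem242 to Tagap, had log2 ratios between -0.36 and 0.41. Gm1604b, 3 tested genes away, was at -0.19 ± 0.22 in CxH over MH and at -1.25 ± 0.25 in MWT over CxWT.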
